A study of Mus musculus with 20 samples.

Results

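The peroxisome is built and maintained by a small set of proteins, and 36 of their genes were followed here among the 53599 gene symbols of 2 liver RNA count tables. The genes were taken by name: peroxins, ABCD transporters, fission factors and other peroxisomal proteins with a row in both tables. All 36 were found, and all 36 passed the filter on low counts in each comparison. The livers came from male and female mice that lacked PPARα (KO) or expressed human PPARα (hPPARa, a transgene). Starting when they were weaned, their drinking water held 0.5% sucrose for 6 to 7 weeks. That water was the vehicle, and the exposed groups had perfluorooctanoic acid (PFOA), a long-lived fluorinated surfactant, dissolved in it. The level of PFOA is given as "8 µm", read here as micromolar. All groups ate 1 custom diet that drew 51.8% of its energy from carbohydrate, 33.5% from fat and 14.7% from protein. There were 3 hPPARa female vehicle, 2 hPPARa female PFOA, 2 hPPARa male vehicle, 3 hPPARa male PFOA, 1 KO female vehicle, 3 KO female PFOA, 3 KO male vehicle and 3 KO male PFOA libraries. What drives the human transgene, which part of the mouse gene was deleted, the strain and the age in weeks are unstated in the sources used here, and no mouse without either alteration was included. The labels do not say that each library is a separate animal, so the p-values measure the spread between these libraries.

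Peroxisomes are single-membrane organelles that shorten very long and branched fatty acids, break down hydrogen peroxide and begin ether lipid synthesis. Peroxins (the Pex genes) insert the membrane proteins, import matrix enzymes and divide the organelle, while ABCD transporters carry fatty acids and their CoA esters across its membrane. PPARα is the nuclear receptor through which fibrates and many perfluorinated acids enlarge the peroxisome population of rodent liver, and it binds DNA together with RXR.

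Library totals ran from 14973673 to 17953860 counts. Ppara, the targeted gene, was counted at 16.6 to 39.5 CPM (counts scaled to the library's size) in hPPARa and 8.47 to 25.2 CPM in KO. On vehicle KO did not differ from hPPARa beyond the spread (log2 fold change −0.19 ± 0.22 SE, adjusted p = 0.685). The row sums all reads of the mouse gene and does not show which exons they fell on, so it does not check the genotype labels. Transcripts of the other sex stood out in 3 KO libraries, picked from their values: Ddx3y, a Y-linked gene, at 1.85 CPM in KO female vehicle 1 and 4.07 CPM in KO female PFOA 2, and Xist, the X-inactivation RNA, at 31.0 CPM in KO male PFOA 2. The other female libraries had at most 0.406 CPM of Ddx3y and the other male libraries at most 4.42 CPM of Xist. Results that rest on these are given without them as well. No KO female vehicle library is then left, so the KO PFOA effect rests on KO males and the KO sex difference on PFOA libraries. Fewer libraries and transcripts of the other sex cannot be told apart in a call lost this way. The share of counts from mitochondrially encoded genes was 6.62% to 14.0%.

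Promoter windows of the genes that turned out to move most are printed to show what sequence lies at their starts. They run from 250 bases before to 50 bases after the start, in RefSeq's GRCm38.p6 table, where 29 of the 36 genes had at least 1 window. The other 7 are Pex2, Pex19, Abcd2, Abcd4, Pxmp2, Mpv17l and Amacr. The counts themselves were made on GRCm39, so the coordinates describe the sequences only. Abcd3 had another window as well, at chr3:121814860-121815159, which was searched but is not printed. In the first 3 sequences the capitals mark the 50 bases from the start onwards.
Pex11a (chr7:79743082-79743381, minus strand): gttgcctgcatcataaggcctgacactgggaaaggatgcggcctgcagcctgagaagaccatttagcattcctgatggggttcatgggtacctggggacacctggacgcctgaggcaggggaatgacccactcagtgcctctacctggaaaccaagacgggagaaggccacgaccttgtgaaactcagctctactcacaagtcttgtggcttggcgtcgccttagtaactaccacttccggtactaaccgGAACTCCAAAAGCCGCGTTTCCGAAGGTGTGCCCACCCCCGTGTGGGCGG
Abcd3 (chr3:121815253-121815552, minus strand): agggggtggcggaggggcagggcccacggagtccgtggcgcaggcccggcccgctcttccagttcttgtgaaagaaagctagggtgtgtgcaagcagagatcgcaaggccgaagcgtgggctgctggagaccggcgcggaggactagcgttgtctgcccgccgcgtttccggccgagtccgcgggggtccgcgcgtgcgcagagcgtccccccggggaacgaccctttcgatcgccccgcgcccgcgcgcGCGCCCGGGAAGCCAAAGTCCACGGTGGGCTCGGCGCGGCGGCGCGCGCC
Pxmp4 (chr2:154603624-154603923, minus strand): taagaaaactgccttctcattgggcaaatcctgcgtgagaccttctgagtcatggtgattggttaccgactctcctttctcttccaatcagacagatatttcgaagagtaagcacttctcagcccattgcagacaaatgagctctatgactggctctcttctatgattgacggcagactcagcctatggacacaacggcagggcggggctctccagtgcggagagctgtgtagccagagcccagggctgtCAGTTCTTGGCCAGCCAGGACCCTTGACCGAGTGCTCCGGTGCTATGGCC
PPARα with RXR binds a direct repeat of the hexamer AGGTCA with 1 base between the copies. Both strands of each window were searched for it with at most 2 mismatches, the spacer being free and overlaps with other motifs not considered. Of the 29 genes only Cat, for catalase, held such a stretch (3.45%), against 4.40% of the 27025 genes in the table. It starts 204 bases before the Cat start, on the gene's strand, with 2 mismatches, and is in capitals here.
Cat (chr2:103485104-103485403, minus strand): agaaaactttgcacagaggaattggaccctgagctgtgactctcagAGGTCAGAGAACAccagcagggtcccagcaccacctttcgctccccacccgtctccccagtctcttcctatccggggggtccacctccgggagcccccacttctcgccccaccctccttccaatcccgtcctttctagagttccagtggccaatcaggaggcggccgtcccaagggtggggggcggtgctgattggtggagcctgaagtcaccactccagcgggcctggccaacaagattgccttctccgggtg
None of the 29 held the repeat with 1 mismatch or none, against 0.644% of all genes. A single exact AGGTCA on either strand was in 3 of the 29 (10.3%; Cat, Pex11g and Phyh) and in 18.1% of all genes. Averaged per gene, the windows were 59.3% G or C at the median, with a range of 42.7% to 75.0%, against a median of 52.8% over all genes. A window without these letters says nothing about the receptor elsewhere at the gene.

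Per length, the 36 transcripts covered a wide range of levels. On a scale of CPM per kilobase of merged GENCODE vM21 exons, the 5 hPPARa vehicle libraries had Cat at 1093 ± 313 (SD) and Phyh, the enzyme that starts alpha-oxidation of phytanic acid, at 1083 ± 287. The difference between these highest levels was within their SD. Pecr, a trans-2-enoyl-CoA reductase, followed at 162 ± 14.2 and Pxmp2, a channel-forming membrane protein, at 87.2 ± 12.2. Abcd3 stood at 38.9 ± 4.94 and Pex11a at 20.1 ± 2.38. The lowest were Abcd4 at 2.40 ± 0.114, Agps at 1.34 ± 0.188 and Far1 at 0.323 ± 0.0370. Exon length came from another build and annotation than the counts, so the order of close neighbours is approximate.

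With PFOA, 14 of the 36 genes were higher and 2 lower in hPPARa livers. The 14 spanned membrane assembly, docking, division, transport, proteolysis and ether lipid synthesis, and the rise was largest for Pex11a and Abcd3. By edgeR's quasi-likelihood test with a Benjamini-Hochberg adjusted p below 0.05, 12.8% of the 14400 genes tested were higher and 9.76% lower. The median log2 fold change was 0.18 over the 36 genes and −0.01 over all genes tested. In 13 of the 36 every PFOA library was above every vehicle library, which held for 9.07% of all genes tested, and 1 gene, Abcd4, was below in every library, which held for 5.22%.

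Pex11a promotes elongation and division of peroxisomes and is a classical PPARα target in rodent liver. Its level was 67.5, 54.8 and 75.0 CPM in the 3 hPPARa female vehicle libraries and 62.0 and 61.2 in the 2 male ones. With PFOA it was 153 and 134 CPM in the females and 232, 238 and 220 in the males. All 5 PFOA libraries were above all 5 vehicle libraries, and the 3 male PFOA libraries were above both female ones. The log2 fold change was 1.5 ± 0.15 (2.83-fold, adjusted p = 2.11e-05). The other division genes were not called. Pex11g, a paralog of Pex11a, had a log2 fold change of −0.02 ± 0.11 (adjusted p = 0.893), the GTPase gene Dnm1l 0.01 ± 0.08 (0.927) and its membrane receptor gene Mff 0.01 ± 0.09 (0.968). Fis1, another adaptor in fission, had −0.24 ± 0.11 (adjusted p = 0.125), and −0.31 without hPPARa male PFOA 1 (adjusted p = 0.0208).

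**Figure D1:**
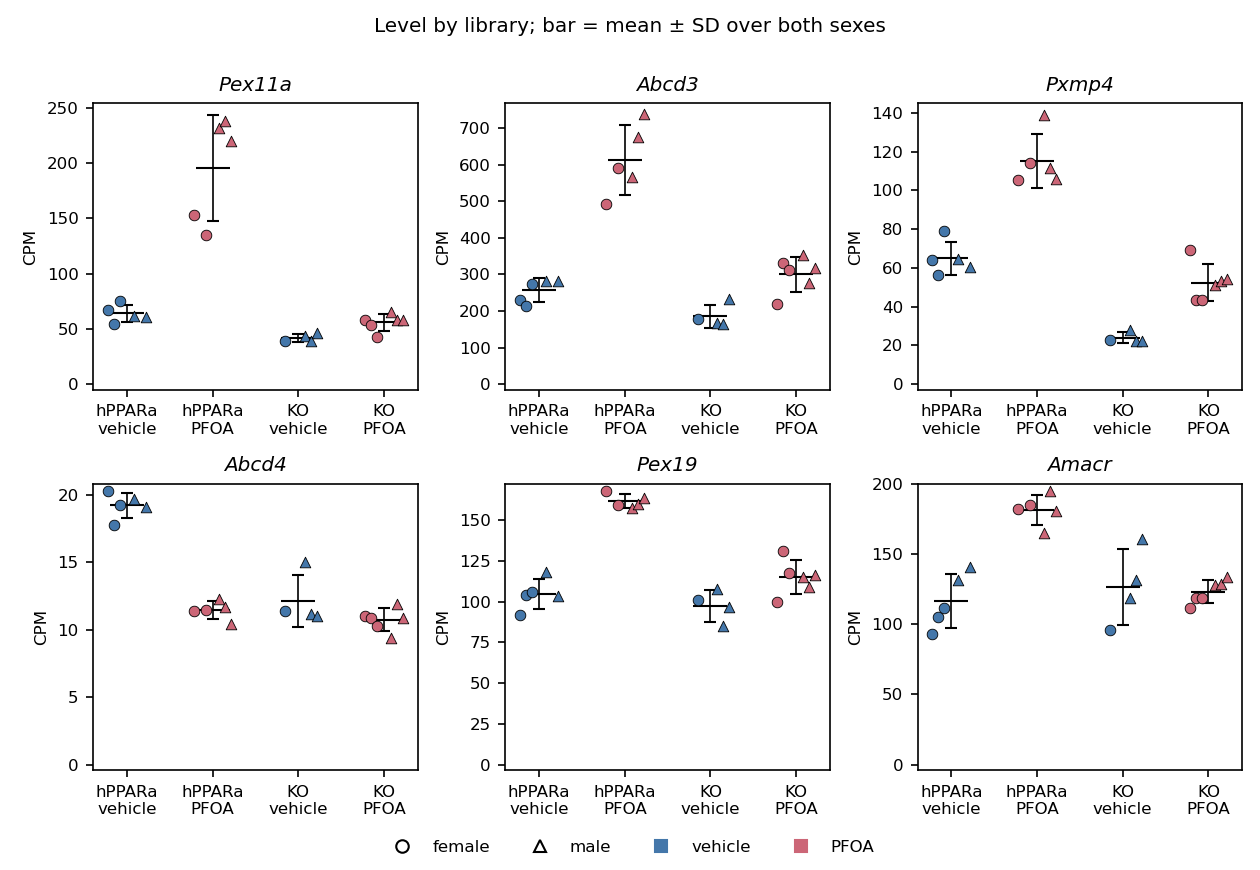
CPM (y axis, linear from 0) of 6 genes in every library by genotype and exposure. Circles are females and triangles males, blue is vehicle and red PFOA, and the bar is the mean ± SD over both sexes (n = 5, 5, 4 and 6). The 5 hPPARa PFOA libraries stand above all other groups for Pex11a, Abcd3, Pxmp4, Pex19 and Amacr, and for Abcd4 the 5 hPPARa vehicle libraries stand above the rest.

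The ABC transporters of the family went in opposite directions. Abcd3 (PMP70) is an abundant membrane protein that imports long and branched acyl-CoAs and bile acid precursors. It was at 230, 213 and 275 CPM in hPPARa female vehicle and 283 and 282 in male vehicle libraries. With PFOA it was at 493 and 592 CPM in females and 567, 675 and 738 in males, with no overlap between exposures. The log2 fold change was 1.19 ± 0.11 (2.28-fold, adjusted p = 1.01e-05). Abcd4 is a family member that works at the lysosome in vitamin B12 transport. It was at 20.3, 17.8 and 19.2 CPM in female vehicle and 19.7 and 19.1 in male vehicle libraries, and at 11.4 and 11.5 CPM in female and 12.2, 11.6 and 10.4 in male PFOA libraries. The PFOA libraries were lower without overlap and differed little from each other (11.4 ± 0.663 SD, n = 5). The log2 fold change was −0.77 ± 0.09 (1.70-fold lower, adjusted p = 5.69e-05). Abcd2, which carries very long polyunsaturated acids, had 1.08 ± 0.56 (adjusted p = 0.208) and differed mostly by sex, as described further on.

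All 3 genes of membrane protein insertion rose. Pex19, the cytosolic receptor of new membrane proteins, was at 92.1 to 118 CPM in the 5 vehicle libraries (median 104) and 157 to 168 in the 5 PFOA libraries (median 160). Its log2 fold change was 0.60 ± 0.09 (adjusted p = 0.000269). Pex16 and Pex3, the membrane anchors that receive Pex19, had 0.38 ± 0.09 (adjusted p = 0.00876) and 0.35 ± 0.09 (0.0146). None of the 3 overlapped between exposures. The docking complex that takes up loaded import receptors rose as well, with Pex13 at 0.26 ± 0.08 (adjusted p = 0.0289) and Pex14 at 0.26 ± 0.08 (0.0278). The other import genes were not called. These were the receptors Pex5 at 0.08 ± 0.08 and Pex7 at 0.01 ± 0.10, the ubiquitin ligase genes Pex2 and Pex10 at −0.15 ± 0.11 and −0.15 ± 0.14, and the recycling genes Pex6 and Pex26 at 0.11 ± 0.10 and −0.04 ± 0.20.

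Of the 7 other membrane proteins 4 rose. Pxmp4 (PMP24), whose biochemical role is not settled, went from 63.8, 56.3 and 79.2 CPM in females and 64.5 and 60.7 in males to 105 and 114 in females and 139, 111 and 106 in males. The exposures did not overlap, and the log2 fold change was 0.81 ± 0.12 (1.75-fold, adjusted p = 0.000268). Tmem135 had 0.46 ± 0.10 (adjusted p = 0.00503), and Slc25a17, a carrier of CoA and other nucleotides, had 0.36 ± 0.08 (0.00792). Acbd5, which tethers peroxisomes to the endoplasmic reticulum, had 0.31 ± 0.10 (0.0419) with overlapping libraries (132 to 168 CPM against 165 to 226). Pxmp2 at −0.33 ± 0.13, Mpv17 at 0.03 ± 0.11 and Mpv17l at 0.33 ± 0.13 were not called.

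Among the matrix proteins the protease Lonp2 rose from 198 to 269 CPM (median 225) to 289 to 398 (median 367), a log2 fold change of 0.60 ± 0.12 (adjusted p = 0.00265). Amacr, the racemase that prepares branched acids for oxidation, rose from 93.3 to 141 CPM (median 112) to 165 to 195 (median 182), with 0.60 ± 0.10 (adjusted p = 0.0011). Gnpat, the first enzyme of ether lipid synthesis, had 0.47 ± 0.09 (adjusted p = 0.0022), whereas its partners in that pathway, Agps at −0.13 ± 0.11 and Far1 at 0.02 ± 0.20, were not called. Pecr fell, at −0.30 ± 0.09 (adjusted p = 0.0324). Catalase, with 0.12 ± 0.11 (adjusted p = 0.473), Phyh with 0.02 ± 0.11, the lyase gene Hacl1 with 0.28 ± 0.13 and the processing protease Tysnd1 with 0.24 ± 0.09 were not called.

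The smallest of these calls did not hold with every library left out. Pex3 was lost without hPPARa male vehicle 1 (adjusted p = 0.0549), Pex14 without hPPARa female PFOA 1 or 2, male vehicle 2 or male PFOA 3 (0.0534 to 0.0873), Pex13 without female vehicle 2, female PFOA 1 or 2, male vehicle 1, or male PFOA 2 or 3 (0.0576 to 0.1), Acbd5 without any library except female vehicle 3 and male PFOA 1 (0.0580 to 0.135), and Pecr without any except female vehicle 1, female vehicle 3 and male PFOA 1 (0.0592 to 0.109). The summed level of 7 hepatocyte markers, none at 0, was 110545 to 201989 CPM on vehicle and 83730 to 123248 CPM with PFOA, and mitochondrially encoded counts were 6.62% and 6.89% in the 2 female PFOA libraries against 10.7% to 12.7% in the 3 female vehicle ones; their part in these results was not tested. In bulk tissue a smaller share of a cell type and less RNA per cell cannot be told apart.

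In KO livers 6 of the 36 genes were higher with PFOA and 1 was lower, where 7.41% of the 15334 genes tested were higher and 6.36% lower. Pxmp4, Abcd3, Pex14, Pex11a and Pex13 were called higher in both genotypes, and Mpv17l was called here and not in hPPARa. The median log2 fold change was 0.09 over the 36 genes and −0.02 over all genes tested. In 4 of the 36 genes, Pex3, Pex13, Pex14 and Pxmp4, every PFOA library was above every vehicle library (5.86% of all genes tested), and in 0 every one was below (3.81% of all).

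Pxmp4 moved most in KO. It was at 22.8 CPM in the KO female vehicle library and 28.1, 22.2 and 22.5 in the 3 male ones. With PFOA it was at 69.0, 43.2 and 43.4 CPM in females and 51.1, 53.3 and 54.3 in males. The PFOA libraries were all higher, at levels below the 5 hPPARa vehicle libraries except for KO female PFOA 1. The log2 fold change was 1.14 ± 0.14 (2.20-fold, adjusted p = 0.000236). Abcd3 went from 178 CPM in the female and 168, 164 and 232 in the male vehicle libraries to 218, 330 and 311 in female and 353, 276 and 318 in male PFOA libraries. Only KO female PFOA 1 lay within the vehicle range, and the log2 fold change was 0.72 ± 0.14 (1.65-fold, adjusted p = 0.00544).

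Pex11a was at 39.5 CPM in the KO female vehicle library and at 43.3, 38.9 and 46.4 in the male ones, and at 57.9, 53.7 and 42.6 in female and 65.2, 58.3 and 57.6 in male PFOA libraries. KO female PFOA 3 overlapped the vehicle libraries. The log2 fold change was 0.45 ± 0.10 (1.37-fold, adjusted p = 0.0102). The docking genes Pex14 and Pex13 had 0.47 ± 0.10 (adjusted p = 0.00593) and 0.38 ± 0.08 (0.00589), both without overlap. Mpv17l, a gene tied to the handling of reactive oxygen, had 0.54 ± 0.15 (adjusted p = 0.0326). Pex26, the membrane anchor of the recycling complex, fell by 0.63 on the log2 scale (SE 0.19, adjusted p = 0.0476), with libraries between 36.6 and 70.7 CPM on vehicle and between 22.7 and 54.8 with PFOA.

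The remaining 29 genes were not called in KO. Among them were 9 that had risen in hPPARa. Of these Acbd5 had 0.36 ± 0.12 (adjusted p = 0.0625) and Pex3 0.27 ± 0.09 (0.053), close to their hPPARa values, and both passed in the model of all 20 libraries (0.0354 and 0.0347). Lonp2 had 0.23 ± 0.15, Pex19 0.22 ± 0.10, Pex16 0.22 ± 0.11, Gnpat 0.18 ± 0.07, Slc25a17 0.12 ± 0.12, Tmem135 0.05 ± 0.10 and Amacr 0.04 ± 0.10. The plot of PFOA effects shows both genotypes side by side.

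**Figure D2:**
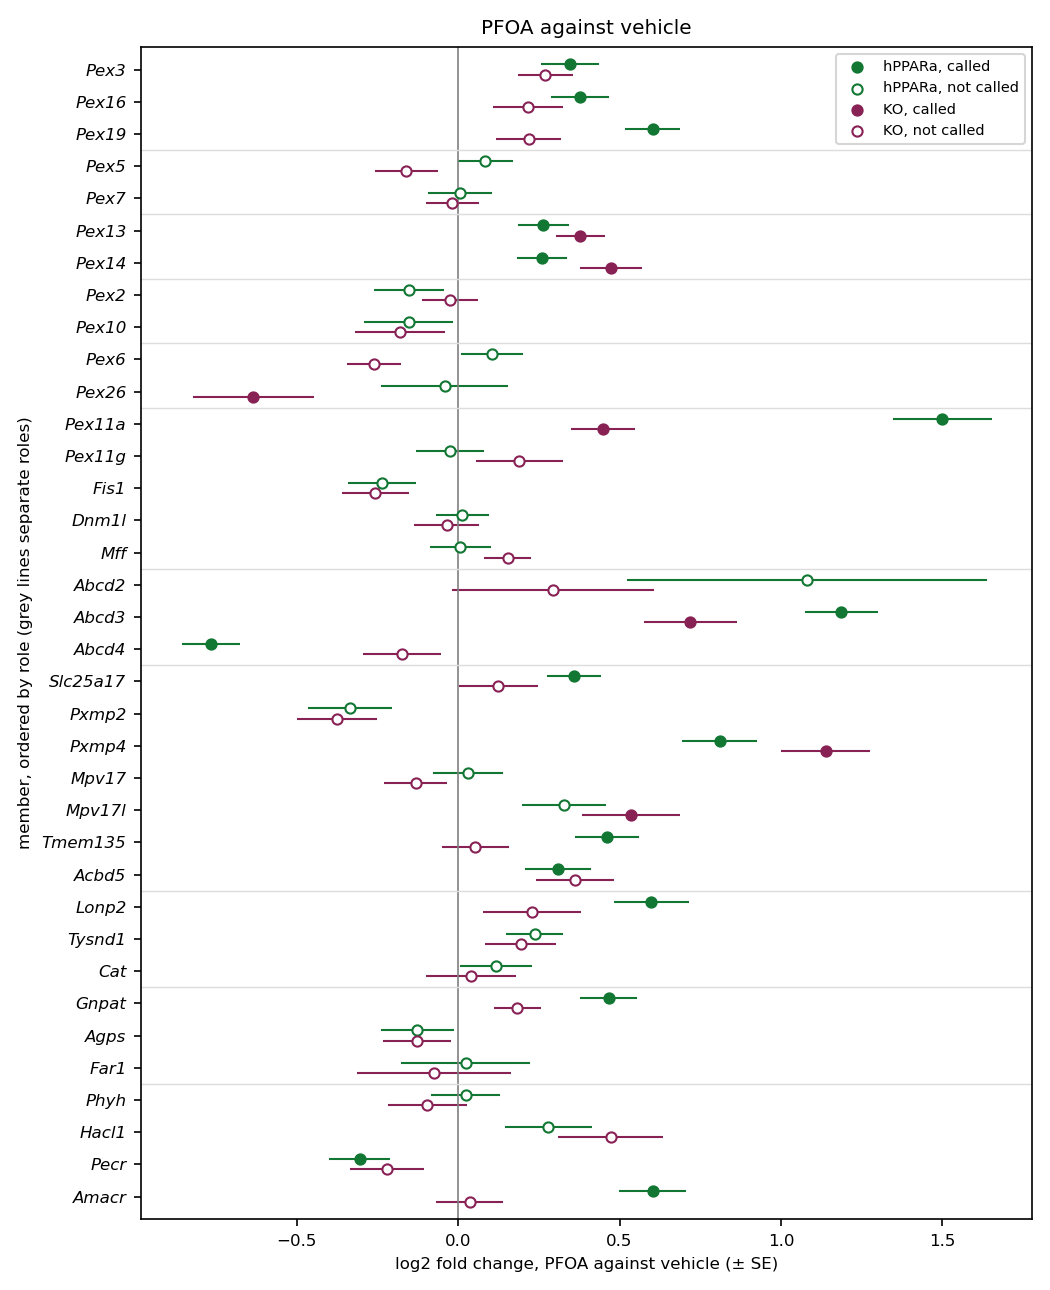
Log2 fold change of PFOA against vehicle (x axis, ± SE) for the 36 genes in order of role (y axis), green for hPPARa and purple for KO. Filled points passed an adjusted p of 0.05. Pex11a in hPPARa lies farthest right at 1.5, Abcd4 in hPPARa farthest left at −0.77, and Pxmp4 is the highest KO value at 1.14.

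Without the 3 KO libraries named above, the PFOA effect rested on KO male PFOA 1 and 3 against the 3 KO male vehicle libraries. In that fit 7 calls became 2, Pxmp4 and Abcd3. The log2 fold changes of the others were then 0.52 for Pex11a (adjusted p = 0.0877), 0.38 for Pex13 (0.114), 0.42 for Pex14 (0.133), −0.57 for Pex26 (0.188) and 0.43 for Mpv17l (0.252). Pex26 was also lost without any single library except KO female PFOA 2 and KO male PFOA 1 (0.0704 to 0.109), and Mpv17l without KO female vehicle 1, KO male vehicle 2 or KO male PFOA 1 (0.0827 to 0.181). The summed level of 6 blood leukocyte markers was 6.09 to 11.5 CPM in KO vehicle and 97.0 to 336 CPM in KO PFOA libraries, against 6.43 to 12.5 and 11.1 to 18.4 CPM in hPPARa. Most of the KO gap was S100a8 (0.254 to 0.536 against 88.2 to 327 CPM): the other 5 markers summed to 5.84 to 11.2 CPM on vehicle and 8.88 to 14.95 with PFOA, and Ly6g was at 0 in all KO PFOA libraries. Hepatocyte markers summed to 86973 to 105743 and 65236 to 88365 CPM in KO vehicle and PFOA. Kupffer cell markers (6) summed to 89.2 to 181 CPM in KO vehicle and 160 to 269.8 CPM in KO PFOA libraries, and cholangiocyte markers (5) to 50.1 to 185 and 15.8 to 46.7 CPM, against 30.1 to 37.6 CPM in hPPARa vehicle libraries, with none of either list at 0. The part of these lists in the KO and genotype results was not tested.

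KO against hPPARa compares livers without the receptor with livers that had its human form. On vehicle, 8 of the 36 genes were lower in KO and 0 were higher, where 1.76% of the 15811 genes tested were lower and 2% higher. At an unadjusted p below 0.05, in either direction, it was 16 of the 36 and 3108 of the 15811. The 8 were Pxmp4, Abcd4, Acbd5, Pex11a, Pex3, Abcd3, Pex16 and Pex14. The median log2 fold change was −0.05 over the 36 and −0.01 over all genes tested.

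Pxmp4 differed most, with 22.2 to 28.1 CPM in the 4 KO and 56.3 to 79.2 CPM in the 5 hPPARa vehicle libraries, a log2 fold change of −1.46 ± 0.14 (2.76-fold lower, adjusted p = 2.92e-06). Pex11a, at 38.9 to 46.4 against 54.8 to 75.0 CPM, had −0.71 ± 0.14 (adjusted p = 0.00794). Acbd5 had −0.70 ± 0.12 (0.00256) with KO libraries from 71.4 to 137 CPM and hPPARa libraries from 132 to 168. Abcd4, at 11 to 15 against 17.8 to 20.3 CPM, had −0.68 ± 0.11 (0.000936). Its KO vehicle level was near that of hPPARa livers on PFOA (10.4 to 12.2 CPM), and of the 8 genes it alone had been lowered by PFOA in hPPARa. Abcd3 had −0.53 ± 0.14 (0.0355), Pex16 −0.39 ± 0.11 (0.0449), Pex3 −0.38 ± 0.09 (0.02) and Pex14 −0.31 ± 0.09 (0.0495).

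The vehicle contrast rested on few libraries. It kept 3 calls without the 3 KO libraries named above and 1, Pxmp4, in males alone; of the 8, 4 were left without KO male vehicle 2, 4 without KO female vehicle 1 (where Phyh was called higher in KO, 0.48, adjusted p = 0.0368), and 5 without hPPARa female vehicle 3 or hPPARa male vehicle 1. In males alone Acbd5 had an adjusted p of 0.237, Abcd4 of 0.106 and Pex11a of 0.0537, and over all alternatives the call was lost in 23 of 28 for Pex14, 17 for Pex16, 8 for Abcd3 and 5 for Pex3.

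With PFOA, 14 of the 36 genes were lower in KO than in hPPARa and 0 were higher, where 7.79% of all genes tested were lower and 7.13% higher. At an unadjusted p below 0.05, in either direction, it was 19 of the 36 and 4444 of the 15811. The median log2 fold change was −0.17 over the 36 and 0.00 over all genes tested. Of the 14, 6 had also been called lower on vehicle (Pex3, Pex16, Pex11a, Abcd3, Pxmp4 and Acbd5) and 8 were called with PFOA alone (Pex19, Pex6, Dnm1l, Abcd2, Tmem135, Lonp2, Tysnd1 and Amacr). Whether the genotype difference itself changed with exposure is the test of the next paragraphs.

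Pex11a stood at 42.6 to 65.2 CPM in the 6 KO and 134 to 238 CPM in the 5 hPPARa PFOA libraries, far apart, with a log2 fold change of −1.76 ± 0.12 (3.39-fold lower, adjusted p = 3.73e-09). Pxmp4 had −1.14 ± 0.12 (adjusted p = 1.04e-06), with 43.2 to 69.0 against 105 to 139 CPM. Abcd3 had −1.0 ± 0.12 (7.54e-06), with 218 to 353 against 493 to 738 CPM. These 3 pairs of groups did not overlap.

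Lonp2 had −0.76 ± 0.13 (adjusted p = 0.000335) and Acbd5 −0.66 ± 0.10 (0.000145). The insertion genes Pex16, Pex19 and Pex3 had −0.55 ± 0.09 (0.000291), −0.49 ± 0.08 (0.000326) and −0.46 ± 0.08 (0.000301). Amacr had −0.55 ± 0.10 (0.000468), Tmem135 −0.44 ± 0.09 (0.00294), Tysnd1 −0.40 ± 0.09 (0.00443), Pex6 −0.38 ± 0.08 (0.00305) and Dnm1l −0.25 ± 0.08 (0.0394). Abcd2 had −2.13 ± 0.44 (0.00447), a mean over both sexes of a gene that was low in males. Pex14, lower in KO on vehicle, had −0.10 ± 0.08 with PFOA (0.404) and Abcd4 −0.09 ± 0.09 (0.557).

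**Figure D3:**
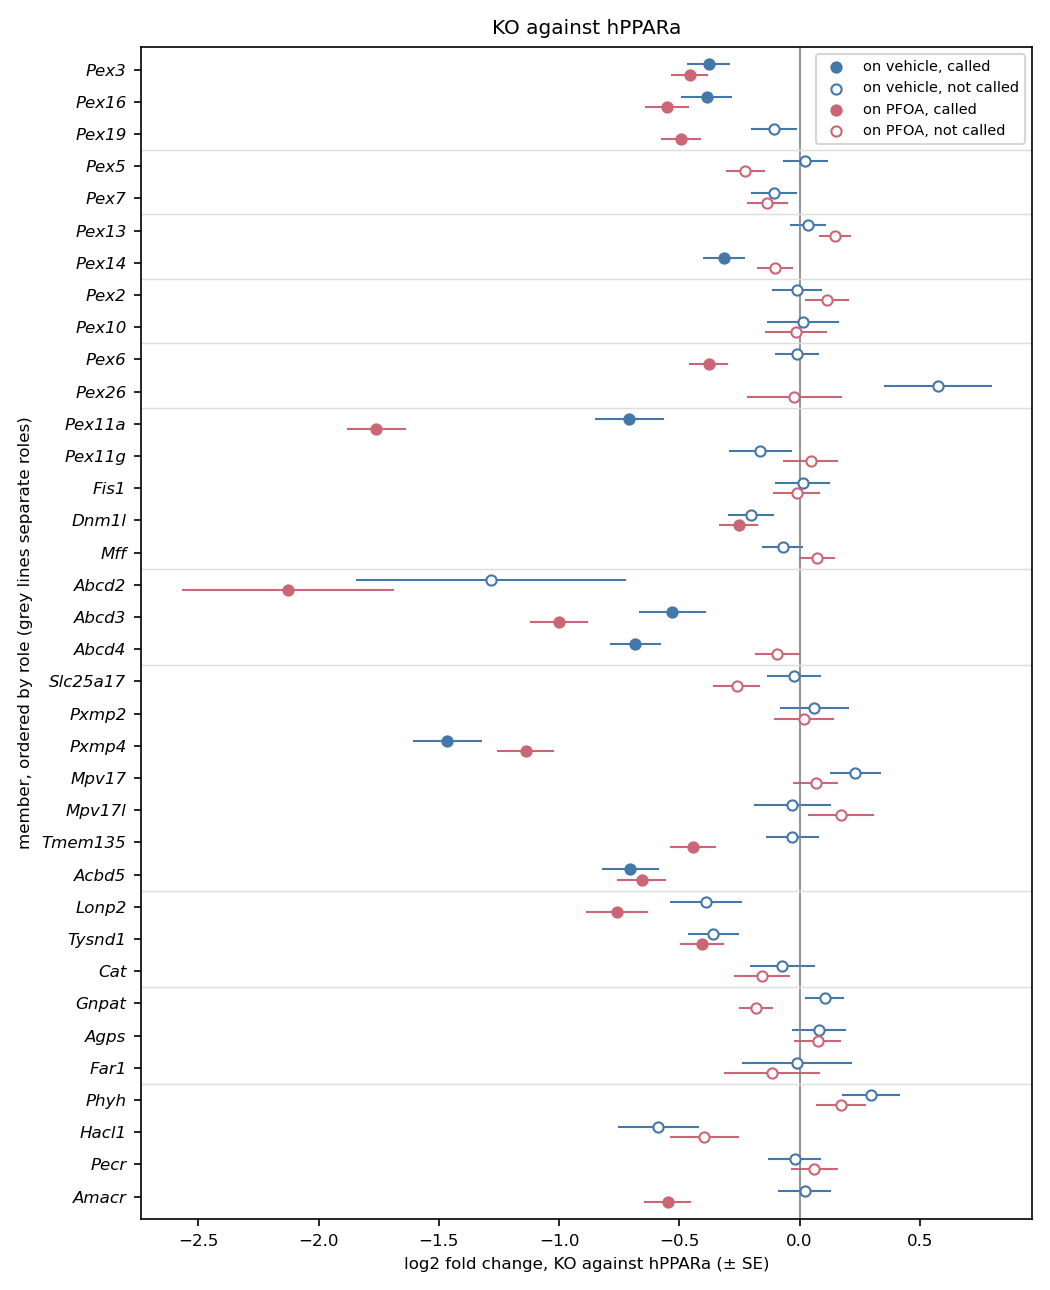
Log2 fold change of KO against hPPARa (x axis, ± SE) for the 36 genes in order of role (y axis), blue on vehicle and red on PFOA. Filled points passed an adjusted p of 0.05, and all of them lie left of 0, from −0.25 for Dnm1l to −2.13 for Abcd2 on PFOA.

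In males alone Abcd2 (adjusted p = 0.115) and Tmem135 (0.0546) were no longer called. Dnm1l was lost in males alone (0.184), without the 3 KO libraries named above (0.0852) and without any hPPARa PFOA library, KO female PFOA 1, KO male PFOA 2 or KO male PFOA 3 (0.0557 to 0.105).

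Whether PFOA acted differently in the genotypes was tested as the KO effect minus the hPPARa effect. It passed for 2 of the 36 genes, 1 in each direction, where 0.443% of the 15811 genes tested were higher and 0.727% lower. Pex11a rose less in KO, by −1.05 ± 0.19 on the log2 scale (adjusted p = 0.00911). Abcd4 fell in hPPARa and had −0.17 ± 0.12 in KO (adjusted p = 0.368), and the difference was 0.59 ± 0.14 (adjusted p = 0.0423). Amacr had −0.57 ± 0.15 (0.0599), Abcd3 −0.47 ± 0.18 (0.245), Tmem135 −0.41 ± 0.15 (0.186) and Pex19 −0.39 ± 0.13 (0.152), and Pxmp4 had 0.33 ± 0.18 (0.454). None of these passed here, but Amacr did with DESeq2 (0.0112), without the filter on low counts (0.015), with the replicate block (0.044) and without hPPARa male PFOA 1 (0.0322).

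Without the 3 KO libraries named above neither Pex11a (−0.98, adjusted p = 0.141) nor Abcd4 (0.47, 0.371) passed. Abcd4 was also lost in males alone (0.548) and without any library except hPPARa male PFOA 1, KO male vehicle 1 and KO male PFOA 1 (0.0512 to 0.139).

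Sex entered in a few genes. In hPPARa 2 of the 36 were higher in males (1.53% of all genes tested) and 1 was lower (1.94%), and in KO 1 was higher (1.26%) and 2 were lower (2.15%). Abcd2 was the gene with the widest gap. It was at 19.2, 28.5 and 26 CPM in hPPARa female vehicle and 37.1 and 38.6 in female PFOA libraries, against 2.82 and 0.401 in male vehicle and 12.5, 2.18 and 4.63 in male PFOA libraries. In KO it was at 11.2 CPM in the female vehicle library and 12.9, 8.59 and 12.1 in female PFOA libraries, against 0.671, 1.07 and 0.698 in male vehicle and 1.18, 2.17 and 0.527 in male PFOA libraries. Every female library was above every male library of its genotype, and the lowest male value rested on 6 counts. Male against female gave log2 fold changes of −3.08 ± 0.57 in hPPARa (adjusted p = 0.0313) and −3.35 ± 0.29 in KO (0.000107).

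Catalase was higher in males in hPPARa, with 0.48 ± 0.11 (adjusted p = 0.0319), and had 0.30 ± 0.14 in KO (0.27). Its hPPARa libraries were at 2262, 2333 and 2185 CPM in vehicle females, 3722 and 3774 in vehicle males, 2804 and 3072 in PFOA females, and 3287, 3688 and 3445 in PFOA males. Phyh was higher in males in both genotypes, with 0.46 ± 0.11 (adjusted p = 0.0312) and 0.59 ± 0.12 (0.0209). Hacl1, the lyase that follows Phyh in alpha-oxidation, was lower in KO males, with −0.79 ± 0.16 (0.0178), and had −0.34 ± 0.13 in hPPARa (0.209).

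**Figure D4:**
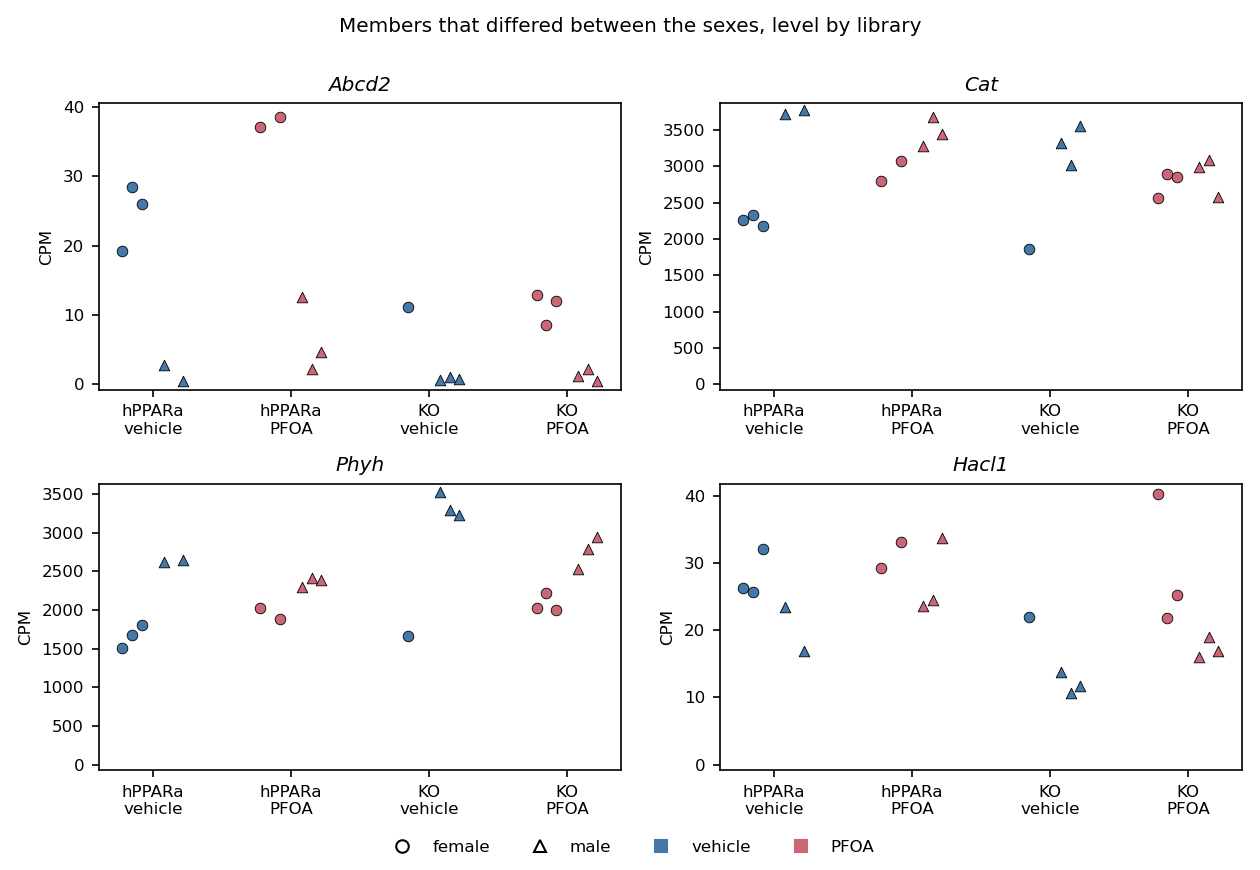
CPM (y axis, linear from 0) of 4 genes in every library by genotype and exposure. Circles are females and triangles males, blue is vehicle and red PFOA. Abcd2 is above 8 CPM in every female library and below 5 CPM in every male library except hPPARa male PFOA 1 at 12.5.

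The PFOA effect in hPPARa did not pass a test of a sex difference for any of the 36 genes (0 higher against 0.0417% of all genes, 0 lower against 0.0625%), with 3 of the 36 and 1477 of the 14400 at an unadjusted p below 0.05. Pex11a came closest, with 1.10 ± 0.14 in females and 1.90 ± 0.15 in males, a difference of 0.80 ± 0.20 (adjusted p = 0.206). DESeq2 called it (adjusted p = 0.0238), as did edgeR without the filter on low counts (0.0287). Catalase and Amacr also had an unadjusted p below 0.05. Catalase had 0.35 ± 0.13 in females and −0.11 ± 0.13 in males (adjusted p of the difference = 0.414). Amacr had 0.80 ± 0.13 and 0.41 ± 0.13 (0.481). A sex difference of the PFOA effect was not tested in KO, where 1 female vehicle library would carry it.

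In hPPARa the 3 sex calls were each lost without several single libraries: Abcd2 without female vehicle 2, female PFOA 1 or 2, male vehicle 1, or male PFOA 2 or 3 (adjusted p = 0.0551 to 0.098), Phyh without female vehicle 2, female PFOA 2, male vehicle 1 or 2, or male PFOA 2 or 3 (0.0506 to 0.12), and Cat without any vehicle library, female PFOA 1 or male PFOA 2 (0.0542 to 0.123). In KO, Phyh and Hacl1 were lost without KO female vehicle 1 (0.125 and 0.139) and without the 3 KO libraries named above (0.318 and 0.0936), while Abcd2 held in all alternatives.

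The fatty acid oxidation enzymes that the peroxisome holds are given beside the 36 genes as counts, with no test of the difference between the lists. Of 19 such enzymes 13 were higher and 0 lower with PFOA in hPPARa (median log2 fold change 0.92), and 11 were higher and 1 lower in KO (0.62). Among all genes tested 12.8% were higher and 9.76% lower in hPPARa, and 7.41% and 6.36% in KO. Ehhadh, the bifunctional enzyme, had 3.96 ± 0.13 in hPPARa (adjusted p = 1.09e-09) and the thiolase Acaa1b 3.26 ± 0.15 (1.004e-08). In KO, among those called were Acaa1b at 2.37 ± 0.21 (4.88e-05), the isomerase Eci2 at 1.16 ± 0.13 (0.000115) and Crat, a carnitine acyltransferase, at 0.95 ± 0.13 (0.000597). Of these 19, 8 were lower in KO on vehicle (1.76% of all genes tested) and 14 with PFOA (7.79%).

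Of 15 tested genes among 16 other matrix enzymes, 4 were higher and 3 lower with PFOA in hPPARa (26.7% and 20%). In KO 2 were higher and 2 lower (13.3% each). The shares of all genes tested were 12.8% and 9.76% in hPPARa and 7.41% and 6.36% in KO. Dhrs4, a carbonyl reductase, had 1.16 ± 0.09 in hPPARa (adjusted p = 1.89e-06) and 0.82 ± 0.09 in KO (6.91e-05). Ephx2, the soluble epoxide hydrolase, had 1.24 ± 0.14 in hPPARa (3.79e-05), and Baat, which conjugates bile acids, had −0.71 ± 0.10 (0.000186).

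For 14 of the 36 genes neither exposure nor genotype gave a call in any of the 4 contrasts: Pex5, Pex7, Pex2, Pex10, Pex11g, Fis1, Mff, Pxmp2, Mpv17, Cat, Agps, Far1, Phyh and Hacl1. They include both import receptors, both ubiquitin ligase genes of the 36 and 3 of the 5 division genes. Most genes tested had no call in each contrast: 11147 of 14400 for PFOA in hPPARa and 13221 of 15334 for PFOA in KO. For genotype it was 15215 of 15811 on vehicle and 13452 of 15811 on PFOA. The share of all genes without a call in all 4 was not counted. Fis1 and Pxmp2 pointed down with PFOA in both genotypes, at −0.24 ± 0.11 and −0.33 ± 0.13 in hPPARa and −0.26 ± 0.10 and −0.37 ± 0.12 in KO, and were not called. Pxmp2 passed without the filter on low counts in both genotypes (adjusted p = 0.0323 and 0.00991) and with DESeq2 in KO (0.0429), and Fis1 passed in KO without KO female vehicle 1 (0.0389). Of the 14, Pex5, Phyh and Hacl1 were also called under at least 1 alternative. A p that misses the threshold does not show that a level stayed the same, and Far1, at 21 to 68 counts per library, had SEs of 0.20 to 0.24 in these contrasts.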

How the data were processed

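Bulk liver RNA was sequenced by BGI Americas on its own platform after a Direct-zol extraction that removed genomic DNA, from samples with an RNA integrity number above 7, per the labels' protocols. Per the submitters' processing notes, cutadapt 1.15, FastQC 0.11.5, STAR 2.5.3, featureCounts 1.6.1, R 4.1.0, edgeR 3.36.0 and the build GRCm39 were used; how each was set, the annotation and whether strand was used are unstated in the sources used here. What the authors deposited is 1 table of raw counts per gene for each genotype, with 53599 shared symbols and 10 libraries in each, all matched by library name. Without a known strand setting, overlapping or antisense genes and close paralogs may share reads.

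Differences were tested on these counts in R 4.3.3 with edgeR 4.0.16 (TMM factors of 0.914 to 1.08, the default filter by group, robust quasi-likelihood test, Benjamini-Hochberg over all genes tested). PFOA within a genotype was fitted on its 10 libraries with sex as a term, and contrasts between genotypes in 1 model of the 20 libraries that weights the sexes equally. SE is the log2 fold change divided by the square root of F. CPM were computed here from the counts and TMM factors of all 20 libraries. The fits, other than the genotype contrasts on vehicle and on PFOA, were also run on simulated counts that held only the tested effect. The outcome is not reported here, so it lends no weight to the results. DESeq2 1.42.0, other scalings and filters, a replicate block and left-out libraries were alternatives.

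The 36 genes and all lists were chosen with earlier results of these data known. All 36 are reported, and of other peroxisomal lists up to 3 called genes per comparison with the smallest adjusted p; some that this rule takes are left out of the text. Libraries of a group differed beyond counting noise (chi-square per gene of 7.41 to 42.4), so none was counted as a second sequencing of the same library. The lowest value was between hPPARa female PFOA 1 and 2, and the next was 13.4. These values do not show whether each library is a separate animal. Promoters came from RefSeq's GRCm38.p6 table. Protein features were not analysed here.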

Additional observations from a re-analysis of the deposited data

Results flagged for a closer look

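The PFOA effect differed between the genotypes for 2 of the 36 genes, by edgeR's test of that difference. Of the 15811 genes tested 0.443% were higher and 0.727% lower. For Pex11a it was smaller in KO by −1.05 on the log2 scale. For Abcd4 the KO effect lay above the hPPARa effect by 0.59. Fitted within each genotype, hPPARa livers had log2 fold changes with PFOA of 1.5 for Pex11a and −0.77 for Abcd4, and KO livers 0.45 and −0.17. Without the 3 KO libraries in which transcripts of the other sex stood out the differences were −0.98 and 0.47 and fell short of the threshold (adjusted p = 0.141 and 0.371). That fit held no KO female vehicle library. Over all alternatives the call was lost in 20 of 28 for Abcd4 and in 1 of 28 for Pex11a.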

How the results depend on the processing

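A gene's result in a comparison was followed here if it was called in the main fit or under any alternative. Results never called are not in these counts. Among the 81 results followed and 1705 recomputed values, 1473 kept direction and call, 167 lost the call, 65 gained it and 0 reversed. Of 53 called in the main fit, 26 were called under all alternatives run. Without KO female vehicle 1, KO female PFOA 2 and KO male PFOA 2, the counts of genes fell from 2113 to 630 (7 to 2 of the 36) for PFOA in KO, 596 to 195 (8 to 3) for genotype on vehicle, 185 to 39 (2 to 0) for PFOA by genotype, and 523 to 94 (3 to 1) for sex in KO. In males alone they were 87 (1 of the 36) for genotype on vehicle, 1039 of 2359 for genotype on PFOA and 26 (1) for PFOA by genotype. DESeq2, and then edgeR with no filter on low counts, gave 920 and 1013 for genotype on vehicle, 423 and 545 for PFOA by genotype, 138 and 323 in place of 15 for PFOA by sex in hPPARa (1 and 1 of the 36 in place of 0), 927 and 1088 in place of 501 for sex in hPPARa (5 and 5 in place of 3), and 930 and 1322 for sex in KO (6 and 7).

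Leaving out single libraries gave 1905 to 3889 genes for PFOA in hPPARa (12 to 18 of the 36), 1401 to 2129 for PFOA in KO (6 to 8), 351 to 701 for genotype on vehicle (4 to 8), 13 to 16 of the 36 for genotype on PFOA, 67 to 239 for PFOA by genotype (1 to 3), 4 to 27 for PFOA by sex, 255 to 686 for sex in hPPARa (0 to 6) and 127 to 609 for sex in KO (1 to 4).

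No pairing of libraries by replicate number was seen. Deviations of same-numbered libraries of a genotype correlated at −0.126 to 0.112 in 22 pairs, and of other-numbered ones at −0.12 to 0.15 in 42 pairs. The deviations were taken from means of few libraries, so a weak pairing could be missed. With the number as a replicate block, PFOA in KO had 1485 genes (6 of the 36), sex in hPPARa 0 of the 36, and sex in KO 206 genes (1 of the 36). Depth limits Abcd2 in males, at 6 to 206 counts a library, and Far1, at 21 to 68.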
